A study of Mus musculus with 2 samples.

Results

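The wide regions are the autosomal entries, at least 500 bp long, of a list of differentially methylated regions between 2 bisulfite libraries of mouse adipose progenitors. They were chosen by their width alone, which the region caller set from the methylation data of both libraries. They number 858 of 33566 autosomal regions, or 2.56%, in a list of 34139 regions on all chromosomes. The other 32708 autosomal regions, all shorter than 500 bp, are called narrower regions here. One library came from PDGFRα+ cells and 1 from CD137+ cells. PDGFRα (CD140a) is a growth factor receptor found widely on adipose progenitors, and CD137, the product of Tnfrsf9, has been linked to precursors of beige adipocytes. Both libraries were from C57BL/6 mice and both were DEX-treated (dexamethasone, a synthetic glucocorticoid). Per the labels' protocols the cells were enriched with magnetic beads from subcutaneous or visceral fat, cultured and then differentiated in adipogenic medium. The labels do not say which depot either library came from, how many mice were used, or whether undifferentiated or other cells were left in the cultures. No untreated library was compared, and no RNA was measured, so the labelled cell types could not be checked against marker expression.

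DNA methylation in mammals is mostly found at cytosines followed by guanine (CpG). Many genes of the transcription factors that lay out the embryo lie in long stretches of low methylation, where Polycomb proteins often bind, and the borders and flanks of these stretches differ between cell types. Mesenchymal cells from different parts of the body keep different sets of active HOX, T-box and other homeobox genes, and adipose progenitors of different fat depots are known to differ in such genes.

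Each region carried a signed score from the authors and no methylation level of either library. The score's order of subtraction is not stated. The list's title names CD140 before CD137. Were the scores taken in that order, regions with negative scores would be less methylated in PDGFRα+ cells than in CD137+ cells. With 1 library per group there was no replicate error and no test was possible. Shares are given with 95% Wilson intervals, which cover the counting of regions only. Width, score and sign come from the same comparison of the 2 libraries, so statements on them describe how the list is made up.

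Few wide regions overlapped a listed start of a protein-coding gene. Such starts listed by RefSeq were available on 18 chromosomes, which left 829 wide regions, and not for every gene there. The nearest gene had a listed start for 641 of the 829 (77.3%) and for 80.1% of narrower regions. Regions at the start of an unlisted gene were therefore missed. Only 6 of them (0.724%, 0.332% to 1.57%) overlapped the window running 250 bp upstream to 50 bp downstream of a start, against 0.536% of narrower regions (0.462% to 0.623%). They reached 7 windows of 6 genes, and with genes of every kind counted 18 windows of 16 genes were reached. Wide regions over an end of the gene at Ebf2, Foxl1 and Mab21l1 were not among the 6. Midpoints within 1000 bp of a protein-coding window were found for 1.33% of wide regions (0.743% to 2.36%) and 2.13% of narrower ones (1.98% to 2.30%). The 250 bases upstream of 4 protein-coding starts are shown because they range from CpG-rich to CpG-poor. Sequences are from RefSeq (GRCm38.p6, the assembly named mm10), 5′ to 3′ on the strand of the gene, with every CG in capitals.
Hoxa5, chr6:52204588-52204837, minus strand: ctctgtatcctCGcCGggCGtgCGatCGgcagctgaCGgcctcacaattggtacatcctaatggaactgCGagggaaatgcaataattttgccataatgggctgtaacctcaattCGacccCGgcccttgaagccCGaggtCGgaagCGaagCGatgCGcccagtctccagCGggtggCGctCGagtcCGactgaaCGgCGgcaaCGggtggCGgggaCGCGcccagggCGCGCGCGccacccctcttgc
Tmem267, the more downstream of its starts, chr13:119488223-119488472, plus strand: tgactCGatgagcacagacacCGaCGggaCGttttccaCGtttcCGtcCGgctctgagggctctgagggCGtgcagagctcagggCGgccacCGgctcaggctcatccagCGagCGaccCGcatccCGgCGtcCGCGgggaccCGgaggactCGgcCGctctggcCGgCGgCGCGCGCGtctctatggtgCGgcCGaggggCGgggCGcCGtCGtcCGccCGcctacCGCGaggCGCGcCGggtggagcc
Pik3r1, start inside the gene, chr13:101692631-101692880, minus strand: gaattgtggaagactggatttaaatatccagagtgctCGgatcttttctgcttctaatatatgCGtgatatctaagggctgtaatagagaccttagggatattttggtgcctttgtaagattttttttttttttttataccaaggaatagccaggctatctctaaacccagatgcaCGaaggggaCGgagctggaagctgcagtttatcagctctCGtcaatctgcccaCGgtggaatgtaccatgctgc
Bmpr1b, start inside the gene, chr3:141982265-141982514, minus strand: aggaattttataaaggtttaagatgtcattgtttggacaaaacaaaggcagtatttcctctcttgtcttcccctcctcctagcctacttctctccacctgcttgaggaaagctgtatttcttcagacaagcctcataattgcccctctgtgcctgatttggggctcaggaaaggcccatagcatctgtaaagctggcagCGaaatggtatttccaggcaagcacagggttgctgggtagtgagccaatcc

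Hoxa5, a HOX factor that patterns the neck and chest levels of the body axis, had 28 CpG in its upstream stretch. The negative region of 2319 bp there, with a score of -2115, covered 123 bp of the window, at the end furthest from the start. Tmem267, a gene for a transmembrane protein, has a pair of listed starts within the same region, 1 at the gene's first base and 1 inside the gene. The inner one, shown here, had 39 CpG in its upstream stretch, and the outer one had 17. The region, negative with 744 bp and a score of -2088, covered the whole window of the inner start, 300 bp with 50 CpG. The start inside Pik3r1, the regulatory subunit of phosphoinositide 3-kinase, had 6 CpG and was covered whole by a negative region of 753 bp (score -308). The start inside Bmpr1b, a receptor for bone morphogenetic proteins, had 1 CpG in its upstream stretch and 5 in its whole window. A positive region of 766 bp (score 461) covered 101 bp of that window. The starts reached at the other 2 protein-coding genes were also inside the gene. At Nr2f1, a nuclear receptor of embryonic patterning, the upstream stretch had 2 CpG and the region was negative (-770, 1291 bp). At Wipf1, a regulator of actin, it had 3 CpG and the region was positive (601, 762 bp). By their upstream stretches, Hoxa5 and both starts of Tmem267 were thus the CpG-rich cases, and the starts inside Pik3r1, Bmpr1b, Nr2f1 and Wipf1 were CpG-poor.

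Wide regions touched 1 miRNA hairpin and came within 1 kb of another. Their mature 5p strands are shown with the seed, bases 2 to 8, in capitals.
mmu-miR-3109-5p: aAUGGAUGcgaugguucccaugcu
mmu-miR-196a-5p: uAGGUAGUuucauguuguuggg

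The hairpin of Mir3109, inside Anxa2, overlapped a positive region of 536 bp with a score of 187. Mir196a-1, whose 5p strand targets HOX transcripts, lay 716 bp from a negative region of 561 bp near Hoxb9 (score -387). The seeds differ, so the pair forms no seed family.

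Most wide regions had a negative score. There were 641 negative wide regions (74.7%, 71.7% to 77.5%) against 67.1% of narrower regions (66.6% to 67.7%), with 67.3% over all autosomal regions. The 217 positive ones compare with 32.7% positive over all autosomal regions. In width classes that start at 0, 100, 200, 300, 500, 750 and 1000 bp, the negative share was 65.1%, 66.9%, 71.2%, 73.7%, 75%, 74.5% and 72.6%. The share thus levelled off near 300 bp, and the wide classes overlapped in their intervals with the class that starts at 300 bp (71.9% to 75.3%). At the 500 bp threshold itself the values lay close together. The 57 regions less than 10 bp above it were 73.7% negative with a median absolute score of 131, and the 53 regions at most 10 bp under it were 66.0% negative with a median of 142, with intervals that overlapped (61.0% to 83.4% and 52.6% to 77.3%).

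**Figure D1:**
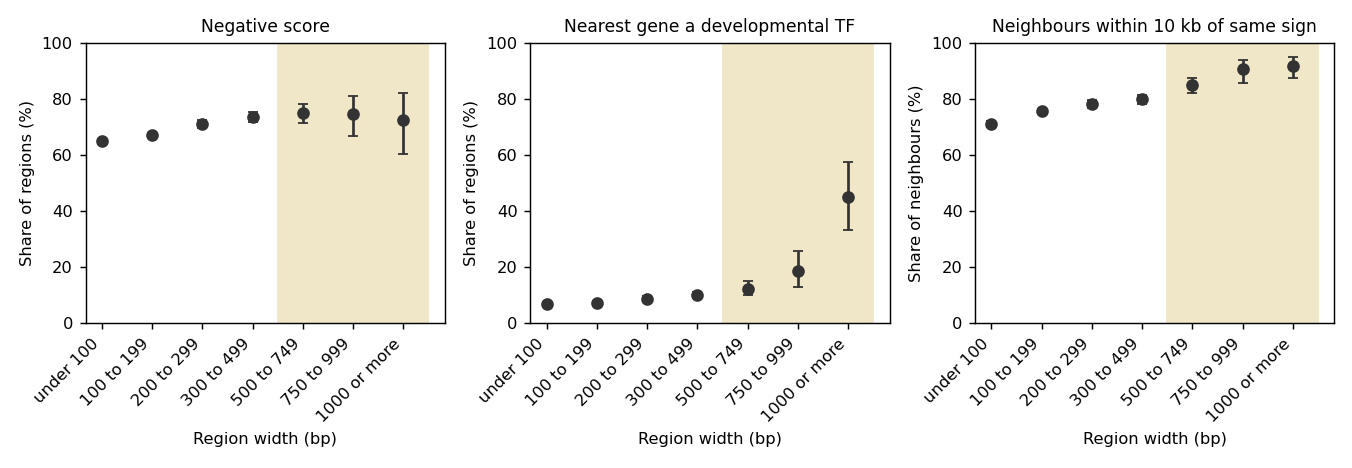
Percent by width class in bp, with 95% Wilson intervals and the wide classes shaded: regions with a negative score (left), regions whose nearest protein-coding gene is a developmental transcription factor (TF, centre), and neighbours within 10 kb that share the region's sign (right). The negative share runs from 65.1% under 100 bp to 72.6% at 1000 bp or more, while the transcription factor share reaches 45.2% in the widest class.

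The wide regions had a median width of 617 bp, reached 3191 bp and together covered 592 kb. Their absolute score had a median of 173 (quartiles 97.8 to 285), against 48.9 (33.0 to 75.3) for narrower regions. Absolute scores of at least 100 were reached by 637 wide regions (74.2%) against 14.1% of narrower ones, with 15.6% over all autosomal regions. Score per bp ran the other way, with a median of 0.277 (0.155 to 0.428) in wide regions and 0.434 (0.323 to 0.580) in narrower ones. A wide region thus tended to a larger total and a smaller value per base. An absolute score of at least 500 was found for 92 autosomal regions, 74 of them wide and 18 narrower. These 74 were 62.2% negative (50.8% to 72.4%).

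Extreme width alone did not mean a large score. The second widest region of all, 2992 bp, lay 8.84 kb from Gm16434, a predicted gene, and scored only -42.1, or 0.0141 per bp. Other wide negative regions of low score lay near Mpp6, a membrane scaffold protein (1870 bp, -98.2), and 359 kb from Dthd1 (1620 bp, -52.7). On the positive side a region of 1692 bp lay 50.4 kb from Pcdh7, a protocadherin, with a score of 37.4. By contrast the region inside Tbx1, a T-box gene of pharyngeal development, had 1399 bp and -2569, or 1.84 per bp.

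**Figure D2:**
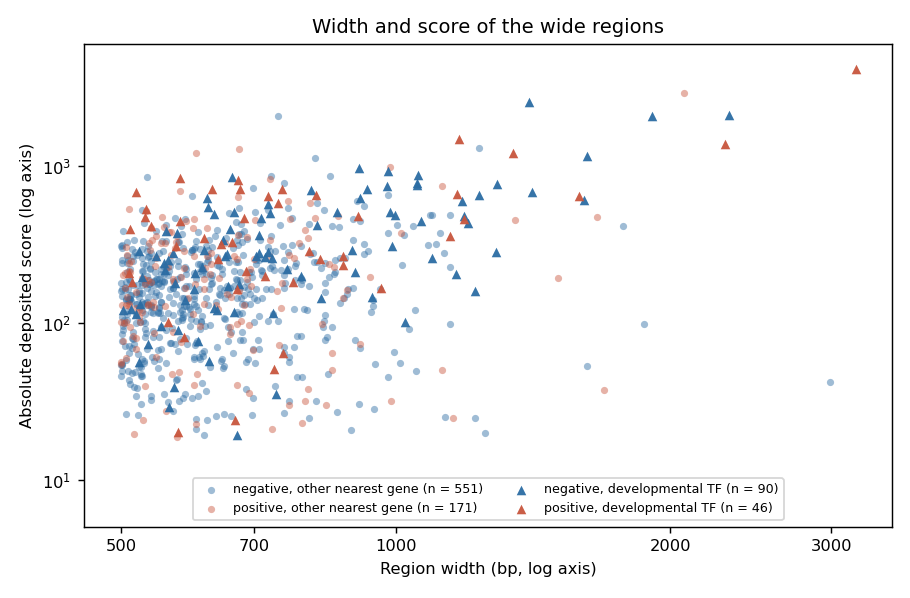
Width in bp against absolute score for the wide regions, both on log axes, with negative and positive scores and developmental transcription factor genes marked. The widest positive region, at Ebf3, stands at 3191 bp, and a region of 2992 bp near Gm16434 has an absolute score of only 42.1.

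Wide regions lay in protein-coding genes about as often as narrower ones. There were 438 inside a gene (51%) against 51.3% of narrower regions. Gene ends, taken as the stretch that reaches 2000 bp beyond a gene's first or last base and 500 bp into the gene, held 53 wide regions (6.18%, 4.75% to 7.99%) against 4.49% of narrower ones. Counted by the midpoint, so that length gives no advantage, the shares were 4.90% and 4.27%. The 420 wide regions outside genes lay a median of 72.1 kb from the nearest one, against 54.7 kb for narrower regions outside genes, and the quartiles (17.0 to 197 kb, against 16.2 to 162 kb) overlapped widely. The genes holding wide regions were of similar length to those holding narrower ones, with medians of 134 kb and 137 kb.

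Wide regions more often had a developmental transcription factor as nearest gene. The list of 493 such autosomal genes covered HOX, other homeobox, T-box, forkhead, EBF, GATA, SOX, bHLH, zinc finger, nuclear receptor and NFI, RUNX or TEAD families. These genes were nearest to 136 wide regions (15.9%, 13.6% to 18.4%) against 7.55% of narrower regions (7.27% to 7.84%). In the classes that start at 300, 500, 750 and 1000 bp the share was 10.1%, 12.4%, 18.6% and 45.2%, with an interval of 33.4% to 57.5% in the widest. Counted by genes, 72 of the 493 were nearest to a wide region (14.6%), against 712 of all 20661 autosomal protein-coding genes (3.45%). The 136 regions had a median width of 709 bp and a median absolute score of 290, against 604 bp and 160 for the other wide regions. They were 66.2% negative (57.9% to 73.6%), against 76.3% (73.1% to 79.3%) of the other wide regions. Among the 74 wide regions whose absolute score reached 500, 42 (56.8%, 45.4% to 67.4%) had such a gene nearest, compared with 6 of the 87 under 50 (6.90%).

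Where starts were listed, wide regions at these genes lay nearer to a start of any protein-coding gene than narrower regions there. Starts on chromosome 18 were not analysed. The nearest gene had a listed start for 90 of 132 wide regions at developmental transcription factor genes (68.2%). This held for 72.3% of narrower regions there, and the rest were left out. The midpoints of the 90 lay a median of 14.5 kb from the nearest start, against 75.4 kb for narrower regions at such genes. That start could belong to another gene. Over 50 kb away were 33 of the 90 (36.7%), against 60.3% of the narrower regions. Of the 90, 29 had their midpoint within 5 kb of a start (32.2%, 23.5% to 42.4%), against 11.9% of narrower regions at such genes (10.5% to 13.6%). Among regions with a listed start, this difference lay beyond the first kb. Between 2 and 5 kb lay 18 of 90 wide regions, against 6.97% of narrower ones, and between 1 and 2 kb 9 of 90, against 2.54%. The first kb held 2.22% of wide and 2.42% of narrower regions. Of the 29, 23 lay downstream of the start and 6 upstream, against 124 and 78 of the narrower regions at such genes. At other genes 32 wide regions within 5 kb lay downstream and 12 upstream. At all other genes 7.99% of wide regions lay within 5 kb, against 9.31% of narrower ones.

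**Figure D3:**
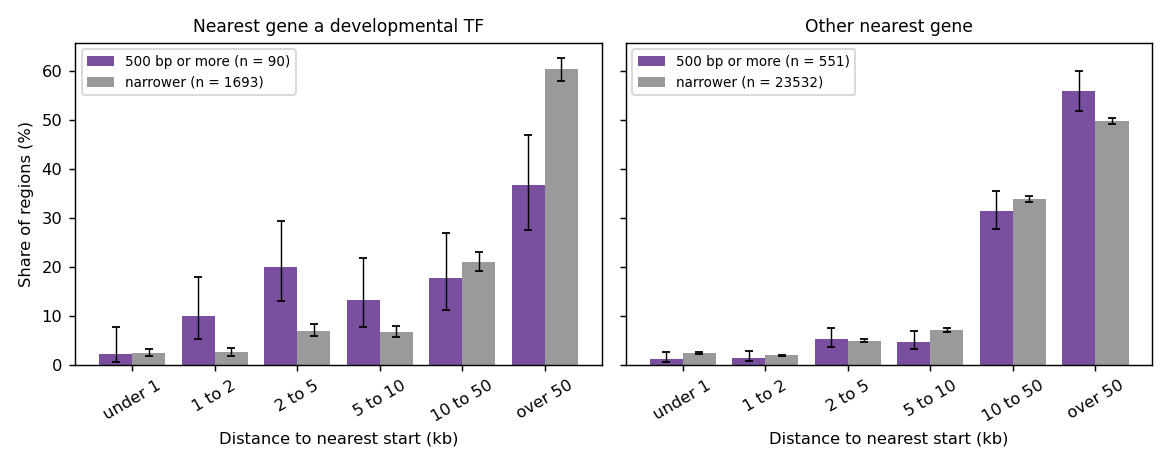
Share of regions, in percent, by distance in kb from the region's midpoint to the nearest RefSeq start of any protein-coding gene, for wide (purple) and narrower (grey) regions at developmental transcription factor genes (TF, left) and at other genes (right), with 95% Wilson intervals. Between 2 and 5 kb the wide regions at developmental transcription factor genes reach 20%, against 6.97% for narrower ones.

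HOX genes, which assign position along the body axis, held 17 wide regions at 11 of their 39 genes (1.98% of wide against 0.367% of narrower regions), 16 of them negative; 74.2% of their narrower regions were negative. The gene span of Hoxa3 in RefSeq overlaps Hoxa4, Hoxa5 and Hoxa6, so regions there are tied between genes. The 5 regions in that span scored -700, -497, -652, -2076 and -2115. Hoxa11 had a region of 1189 bp (-482) and Hoxa10 one of 503 bp (-121). In the HoxC cluster the 3 regions nearest Hoxc11 scored -206, -336 and -90.3, and both nearest Hoxc4 were negative (-463 and -506). Hoxc9 held the only positive HOX region (209, 511 bp). Hoxb9 had 3 negative regions of 553 to 564 bp, from -28.9 to -387. No HoxD gene was nearest to a wide region.

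Homeobox genes outside the HOX clusters held 39 wide regions at 18 of 159 genes (4.55% of wide against 2.55% of narrower regions). The 28 negative ones (71.8%) match the sign of the family's narrower regions, 71.1% of which were negative. Meis1 encodes a TALE homeobox protein that binds DNA together with HOX proteins. Meis1 had 6 wide regions, more than any other gene, all negative (-161 to -506), and 45 of its 54 narrower regions were negative as well. Prrx1, a homeobox gene of limb and craniofacial mesenchyme, had 4, all positive, the widest of 2292 bp (1391). Lmx1b, which sets dorsal limb identity, had 2 negative regions (-686, 1410 bp and -740, 978 bp), as did its relative Lmx1a (-501 and -976). Shox2, a limb and heart gene, had 1 of -932 (980 bp). Negative pairs were also seen at Irx5 (-755 and -267) and Pitx1 (-118 and -122), and Tshz2 had 3 (-208 to -488). Zfhx4 had 3 positive ones (50.8 to 234). En1 had 1 of each sign only a few kb apart (-551 and 477), and Tshz3 had 1 of each (-257 and 256) with the positive one 123 kb away.

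T-box genes, which specify limb, heart and other organ fields, held 15 wide regions at 7 of 16 genes (1.75% of wide against 0.266% of narrower regions). Of these 11 were negative (73.3%), close to the share over all wide regions, and 67.8% of the family's narrower regions were. All 5 in Tbx5, the forelimb and heart gene, were negative (-713, -436, -776, -876 and -283). Tbx15, which acts in the skeleton and in fat, had 3 negative ones (-512 to -598). Tbx2 had 2 positive ones (530 and 396), and its neighbour Tbx4, a hindlimb and lung gene, had 1 of each sign (309 and -123).

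EBF genes, whose products act in B cells and in adipocyte differentiation, stood on the positive side throughout. All 4 genes had wide regions, and all 8 regions (0.932% of wide against 0.205% of narrower regions) were positive and lay within 5 kb of the gene. Ebf3 held the widest region of the list (3191 bp, 4147) and a second of 1147 bp (358). Ebf1 had 3 (663, 200 and 64.3), Ebf2 had 2 (642 and 445) and Ebf4 had 1 (841). Their narrower regions were 17.9% negative (10.6% to 28.7%), so most of those were positive too.

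Forkhead genes held 11 wide regions at 7 of 41 genes (1.28% of wide against 0.541% of narrower regions). Of these 8 were positive, whereas 62.1% of the family's narrower regions were negative (54.8% to 69.0%). Foxl1, a gene of gut mesenchyme, had 2 (1217 and 815) beside 2 at its neighbour Foxc2, which acts in vessels and mesoderm (346 and 101). Foxp1 had 2 positive ones (285 and 472). Foxo3, a target of insulin signalling, had 2 negative ones (-277 and -114).

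The bHLH genes (1.40% of wide against 0.556% of narrower regions) were split, with 6 regions of each sign. Twist1, a mesenchymal factor, had 2 positive regions (648 and 654), and Tcf21, a factor of visceral mesenchyme, had 3 (458, 183 and 256). Hand2, a heart and limb gene, had 3 negative ones (-290, -120 and -274). Id2, an inhibitor of bHLH factors, had 1 of each sign, both more than 300 kb away (-211 and 213). Nuclear receptor genes had 9 (1.05% of wide against 0.566% of narrower regions), all negative, and 68.6% of their narrower regions were negative. Nr2f2, a regulator of venous and mesenchymal identity, held 4 (-1160, -261, -19.2 and -290), Nr2f1 held 2 (-770 and -376) and Nr5a2 held 3 (-132 to -265, with only 1 of them inside the gene).

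Zinc finger genes held 20 wide regions at 13 of 90 genes, a share near that of narrower regions (2.33%, 1.51% to 3.57%, against 1.88%). These counts include Tshz2 and Tshz3, which were also counted among the homeobox genes above. The 15 negative ones (75%) were close to the share over all wide regions. Osr1, a gene of embryonic connective tissue, had the strongest (1484, 1174 bp). Prdm16, a regulator of brown and beige fat, had 3 negative ones (-281, -220 and -627). Zbtb7c had 2 negative ones (-101 and -179). Wt1, a marker of mesothelium and of visceral fat progenitors, had 1 of each sign (463 and -288). In the small families Nfix had 2 positive regions (716 and 684), Nfia had 1 negative one (-363, 708 bp) and Gata2 had 1 positive one 3.01 kb away (710, 751 bp). Sox2 had 4 negative regions, none nearer than 56.8 kb, and Sox5 had 1 of each sign (318 and -280), neither within 97 kb.

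**Figure D4:**
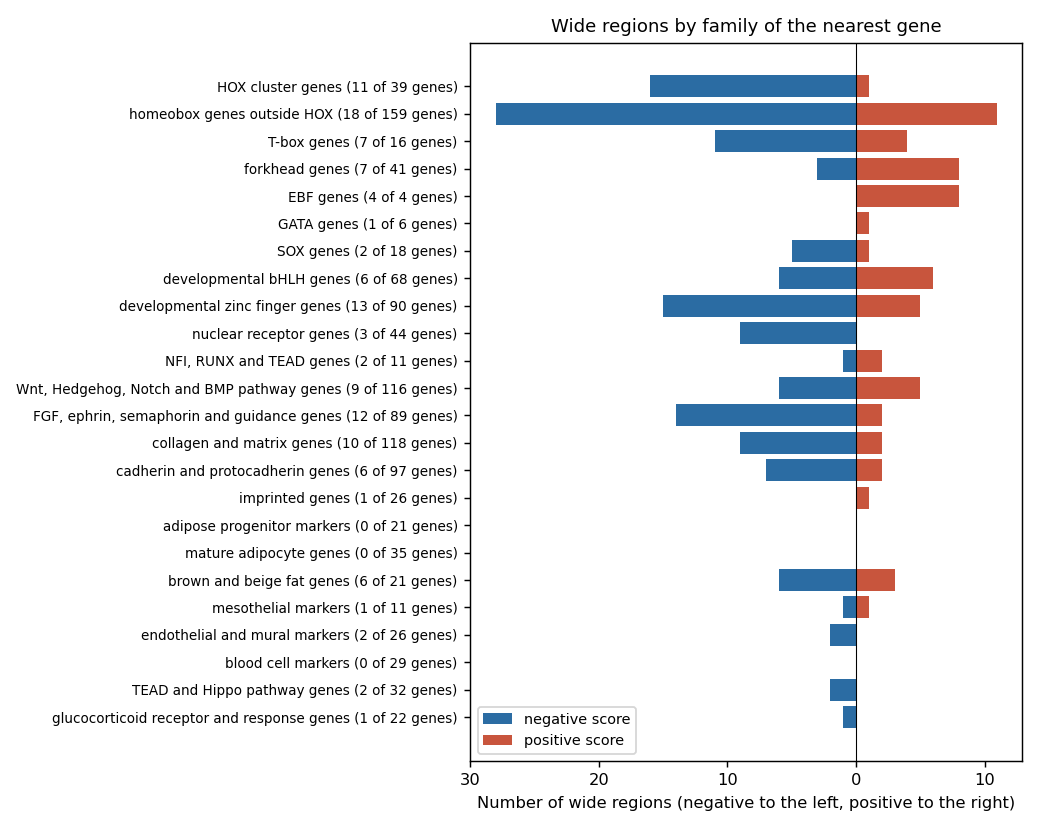
Number of wide regions by family of the nearest protein-coding gene, with negative scores as bars to the left of 0 and positive scores as bars to the right, and the genes with a wide region of all genes in brackets. HOX genes have 16 negative and 1 positive region, EBF genes have 8 positive ones and nuclear receptor genes have 9 negative ones. Families can share genes, so a region can be counted more than once.

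Signalling, matrix and adhesion genes were near wide regions about as often as near narrower ones. The Wnt, Hedgehog, Notch and BMP list had 1.28% of wide against 1.17% of narrower regions, collagen and matrix genes 1.28% against 1.26%, and cadherins 1.05% against 1.02%. FGF, ephrin, semaphorin and guidance genes had 1.86% against 1.47%, with 14 of 16 wide regions negative. Tgfbr1, a TGF-beta receptor, had the widest region of the signalling list, with a low score (1132 bp, -25.1), and Wnt11 had 1 of each sign (-165 and 209). The guidance receptor gene Robo1 had 2 negative regions (-145 and -245), while Ntn1 (443 and -137) and Slit2 (50, -23.9 and -93.3) had both signs. In the matrix list Adamts18 had 2 negative regions (-425 and -231), and the widest, 938 bp, lay in Col24a1 (196). The 9 cadherin regions had a median absolute score of only 38.0. They included the widely spaced regions nearest Pcdh9 (38.0 and -72.8) and Pcdh7 (37.4 and -32.0), and 2 in Fat3 (-31.9 and -41.4).

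The lists of fat cell and marker genes are short, and few regions of either width had one of their genes nearest. None of the 21 adipose progenitor markers, the 35 mature adipocyte genes or the 29 blood cell markers was nearest to a wide region. The same lists had 0.156%, 0.187% and 0.150% of narrower regions, which were nearest to 15, 20 and 11 of their genes. A count of 0 of 858 wide regions allows a share of up to 0.350%, taking 3 counts as the limit, so a share like that of narrower regions would not be told from 0. The nearest wide region to Pdgfra was 361 kb away, the nearest to Tnfrsf9 was 1716 kb away and the nearest to Pparg, the master regulator of adipocyte differentiation, was 302 kb away. The brown and beige list was the exception, with 9 wide regions at 6 of its 21 genes (1.05% against 0.382%). They lay at Tbx1, Shox2, Prdm16, Ebf2, Hoxc9 and Ppargc1a, a coactivator of mitochondrial genes (-241, 508 bp), and 5 of those 6 genes are also on the transcription factor lists. Of the endothelial and mural markers Kdr, a VEGF receptor, held 1 (-369, 583 bp), and Erg had 1 at 56.5 kb (-144, 584 bp). Among the TEAD and Hippo genes Fat4 had 1 at 129 kb (-194, 788 bp) and Dchs1 held 1 (-131, 520 bp). Tead1, named in the series title, had none, and the nearest wide region was 6904 kb away. Of the glucocorticoid list only Sgk1 was nearest to one (-383, 683 bp), at 229 kb, and of the imprinted list only Dio3 (323, 650 bp), at 91.6 kb.

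Some of the strongest wide regions had a nearest gene outside every list. On the negative side these were Tmem267, Shank3, a scaffold of synapses (-1308, 1235 bp), and Mn1, a transcriptional coregulator (-1119, 815 bp). Cyp1b1, a cytochrome P450, had a wide but weaker one 37.4 kb away (-414, 1773 bp). On the positive side were a region shared by the overlapping genes Nbea and Mab21l1 (2903, 2072 bp), Agap3 (1278, 673 bp), Speg, a muscle kinase (1216, 604 bp), and Zfp853 (991, 986 bp). Another lay 49.2 kb from Zfp365 (824, 729 bp). Regions in Hmcn1, a matrix protein (473, 1663 bp), and Wipf1 (454, 1350 bp) were among the 10 widest positive ones. So was a weaker one (193, 1507 bp) whose nearest gene, 1700008P02Rik, was 506395 bp away. Of the 10 largest scores on each side, 7 negative and 5 positive ones lay at listed transcription factors.

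Wide regions occurred in groups along the chromosome. Another wide region lay within 100 kb of 193 of them (22.5%, 19.8% to 25.4%), while 11.2% of narrower regions (10.9% to 11.6%) had a wide one that near. Among wide regions at developmental transcription factor genes the share was 67.6% (59.4% to 74.9%), against 29.1% of narrower regions there (27.4% to 30.9%). Among the other wide regions it was 14.0% (11.7% to 16.7%), against 9.77% of narrower regions at other genes (9.44% to 10.1%). Joining regions with gaps of up to 100 kb gave 665 single regions, 61 pairs and 18 longer runs with 71 regions. Of the 18 longer runs, 14 held a listed transcription factor and 15 had 1 sign throughout.

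The 8 runs of at least 4 wide regions were each built around a transcription factor gene. All-negative runs lay in the HoxA cluster (7 regions over 67.2 kb), in Tbx5 (5 over 7.31 kb) and at Nr2f2 (4 over 10.8 kb). All-positive runs lay at Prrx1 and its neighbour Gorab (5 over 60.3 kb) and at Foxc2 and Foxl1 (4 over 11.2 kb). The HoxC run had 6 negative and 1 positive region over 123 kb, the run at Tbx2 and Tbx4 had 1 negative and 3 positive ones over 64.8 kb, and the run in Tcf4, a bHLH gene that the lists do not hold, had 1 negative and 4 positive ones over 198 kb. Inside the HoxA run 24 of 26 narrower regions were negative too, whereas inside the HoxC run 18 of 35 were. Along the HoxC run the signs lay in 3 blocks. Counting wide and narrower regions together from the Hoxc12 end, 16 negative regions in the first 20.3 kb were followed by 18 positive ones between 27.1 and 88.5 kb, among them the wide one at Hoxc9, and then by 8 negative ones that began inside Hoxc4 and reached past it, to 123 kb. The run at Tbx2 and Tbx4 had 2 blocks, with 7 positive regions on the Tbx2 side and 5 negative ones at Tbx4. Inside the Prrx1, Foxc2 and Tcf4 runs 0 of 7, 0 of 4 and 1 of 14 narrower regions were negative.

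**Figure D5:**
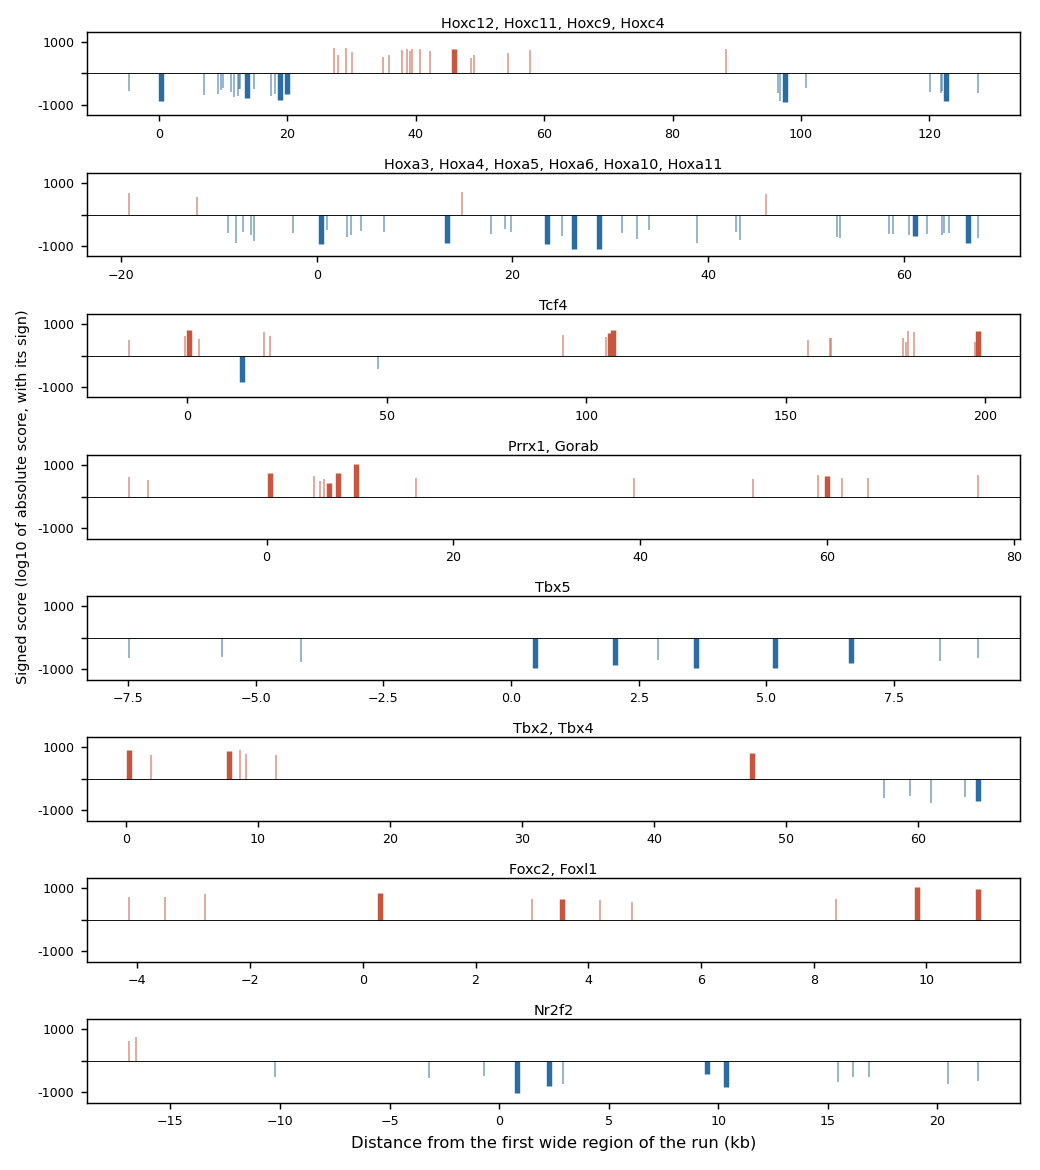
The 8 runs of at least 4 wide regions by distance in kb from the first wide region, each on its own scale. Thick lines are wide regions, thin lines are narrower ones, and line length is the log10 of the absolute score, downward for negative and upward for positive scores. In the HoxC run 18 positive regions stand between 16 and 8 negative ones, while the wide regions of the HoxA, Tbx5 and Nr2f2 runs are all negative.

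Signs were shared with the surroundings. Counted from each wide region, there were 1155 neighbours within 10 kb. Of these 87.2% had the same sign (85.1% to 89.0%), against 74.6% of the neighbours counted from narrower regions. A neighbour near more than 1 wide region was counted for each, and the interval takes no account of this. Negative wide regions shared their sign with 89.1% of neighbours and positive ones with 83.2%, against 80.5% and 63.9% for narrower regions. At developmental transcription factor genes 93.1% of 663 neighbours had the sign of the wide region, against 85.7% for narrower regions there. At other genes the values were 79.3% of 492 neighbours against 72.0%. Neighbours were also more numerous, with a mean of 4.88 within 10 kb per wide region at transcription factor genes against 1.79 per narrower region there. At the 43 transcription factor genes whose wide regions were all negative, 79.0% of 624 narrower regions were negative (75.6% to 82.0%), and at the 23 whose wide regions were all positive, 31.3% of 259 were (25.9% to 37.2%). At other genes the corresponding shares were 70.9% and 54.5%. Another region lay within 500 bp of 162 wide regions, and 188 of the 192 neighbours counted in this way had the same sign. Whether such neighbours are parts of 1 longer stretch was not tested.

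Wide regions were found on every autosome. They made up between 1.54% of the regions on chromosome 17 (21 of 1360) and 3.26% on chromosome 3 (64 of 1963). Chromosome 2 had the most, 72. The negative share was lowest on chromosome 18 (58.6%, 40.7% to 74.5%) and highest on chromosome 19 (87.0%, 67.9% to 95.5%), with overlapping intervals. Chromosomes 1 and 11 each held 16 of the regions at developmental transcription factor genes.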

How the data were processed

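Whole-genome bisulfite libraries of PDGFRα+ and CD137+ cells (1 each) were compared by the authors, who deposited 1 list of regions with a position and a score. The deposited score is signed and serves here to rank and describe regions within the list and is not a methylation level. Positions are in mm10 coordinates, per the submitters' processing notes. The aligner, caller, thresholds and coverage were not given in the sources used here, so the depth behind each region is unknown. No region scored 0.

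Wide regions were entries on chromosomes 1 to 19 with end minus start of at least 500 bp. Each was given the nearest of 20661 autosomal protein-coding genes in the RefSeq table of GRCm38.p6, with all overlapped genes kept on ties. Starts came from 20084 RefSeq promoter windows of protein-coding genes. The 24 families were matched by symbol. Shares have 95% Wilson intervals, and no p-value was computed. Python 3.11.15, pandas 2.3.3, numpy 2.4.6 and matplotlib 3.10.9 were used, and overlap, distance and run counts were checked on simulated regions. Members, lists and the naming rule were chosen with earlier results of these data known. The rule names genes of the 10 widest and 10 largest scores of each sign, of runs of at least 4 and of families with at least 2 wide regions, and the widest per family. Other names were chosen after their values were seen, and some genes that the rule names are not reported here. Alternatives changed the width threshold, gene set, distances and counting.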

Additional observations from a re-analysis of the deposited data

Results flagged for a closer look

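Chromosome X was outside the comparisons above and held 16 wide regions of 557 (2.87%, 1.78% to 4.62%), which is why it is listed here. Of the 16, 13 were negative and 3 positive. The strongest positive one, of 666 bp, lay at Pcdh19, a protocadherin gene (443). Chromosome Y had 15 regions, 0 of them wide. The labels do not give the sex of the mice.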

How the results depend on the processing

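No paired analysis was possible because there was 1 library per group and the labels gave no replicate numbers. Of 43 alternatives, 19 kept a value within the limit set for it and 24 moved it further. The limit was the interval of the main value. The number of wide regions has no interval and was judged by its fold change instead. At thresholds of 300, 400 and 1000 bp wide regions stayed above narrower ones in the shares that were negative, at developmental transcription factor genes, at gene ends and with same-sign neighbours. Gene ends were counted there by any overlap, which favours longer regions. By midpoint at 500 bp the shares were 4.90% (3.64% to 6.55%) and 4.27%. The negative share stayed between 72.6% and 76.3% under all of its alternatives. A width threshold of 300, 400 or 1000 bp gave 3391, 1676 or 62 regions. With those thresholds the share at developmental transcription factor genes was 11.6%, 13.3% and 45.2%, the share with another wide region within 100 kb was 40.9%, 28.5% and 16.1%, and the share of neighbours with the same sign was 82.4%, 85.0% and 91.8%. The share at gene ends was 11.3% at 1000 bp, 4.08% with narrower gene ends (1000 bp outside to 250 bp inside) and 12.8% with all annotated genes. The transcription factor share was 11.5% when only genes within 5 kb counted, and 11.5% when wide regions within 10 kb counted once. Another wide region lay within 20, 50 and 500 kb of 13.4%, 18.1% and 45.1% of wide regions. Same-sign neighbours were 90.9% within 5 kb and 75.6% within 50 kb. Leaving out developmental transcription factor genes, an alternative chosen after seeing the data, gave 13.9% with another wide region within 100 kb and 79.3% of neighbours with the same sign. Read depth is unknown, which limits what the widths and scores can show.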
